A study of Arabidopsis thaliana with 18 samples.

Results

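The 6 plastid genes described here, *psbA*, *psbB*, *psbC*, *psbD*, *psbE* and *psbF*, encode the core subunits of photosystem II in *Arabidopsis thaliana*. They were chosen by gene symbol in the plastid genome, and all 6 were measured, each by 1 probe set, among 69 plastid-encoded probe sets with 1 gene and 22746 probe sets tested. RNA came from rosette leaves of Col-0, the wild type (WT), and of *stn7*, a knockout (SALK_073254) made in Col-0. Every plant was kept for 20 days in continuous white light (35 µE, 22 °C, 60% humidity) before 3 days under light absorbed mainly by photosystem I (PSI light), which gave an age of 23 days at harvest. Rosettes were taken at 0 min, still in PSI light, or at 30 min or 60 min of light absorbed mainly by photosystem II (PSII light), and each of the 6 groups had 3 biological replicates made from pools of at least 250 plants. No group remained in PSI light for 30 or 60 min, so a change with time within a genotype cannot be told apart from a change with the hour of harvest, and *stn7* is known here from 1 insertion line.

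Photosystem II is the thylakoid complex that oxidises water and reduces plastoquinone. The D1 and D2 proteins, encoded by *psbA* and *psbD*, form its reaction centre, CP47 and CP43, encoded by *psbB* and *psbC*, bind chlorophyll around it, and the products of *psbE* and *psbF* are the subunits of cytochrome b559. STN7 is a thylakoid protein kinase that is active when plastoquinone is reduced, and the shift to PSII light reduces that pool. Chloroplast genes are largely transcribed as long shared RNAs: *psbB* together with *psbT*, *psbH*, *petB* and *petD*, *psbD* together with *psbC* and *psbZ*, and *psbE* together with *psbF*, *psbL* and *psbJ*, whereas *psbA* has a transcript of its own. In the RefSeq annotation (assembly TAIR10.1) *psbD* overlaps *psbC*, and *psbF* lies next to *psbE*.

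The values are log2 signals per probe set, so 1 unit is a 2-fold difference, and they are compared only within a probe set. The label was primed on poly(A) tails, which in chloroplasts mark RNA for decay, so the signal of a plastid gene need not follow its total RNA. In bulk leaf RNA, fewer cells of a type and less RNA per cell cannot be told apart. The 6 core genes were above the array median, which ran from 6.1 to 6.31, on every array. The *STN7* transcript is not analysed here. Of 12 leaf markers 2 were measured, and they were high on every array: *RCA* (Rubisco activase) at 12.87 to 13.21 and *rbcL* (the large subunit of Rubisco) at 8.79 to 9.80. Of 4 guard cell markers 2 were measured, *GC1* at 5.63 to 7.13 and *FAMA* at 6.55 to 7.34. In *stn7* *GC1* fell by 0.73 from 0 to 30 min (limma adjusted p = 0.0153) and rose by 1.23 from 30 to 60 min (adjusted p = 0.000305). *FAMA* changed by 0.275 and -0.23 in these steps, neither called. *FAMA* was higher in *stn7* than in WT at 30 min, by 0.59 (adjusted p = 0.0222), and over times, by 0.38 (adjusted p = 0.003). For *GC1* these differences were -0.54 and -0.006, neither called, so the 2 guard cell markers did not move together. Their part in the results was not tested. No root, flower or seed marker had a named probe set.

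Some arrays stood apart from others of their group. A principal component of the deviations from the group means held 28% of the within-group variance over all probe sets, and WT 0 min replicates 1 and 3 had scores of 43 and 45.7 on it, against 9.86 for replicate 2. The mean score was 32.9 ± 20 (SD, n = 3) at 0 min in WT, -14.8 ± 7 at 30 min and -14.9 ± 4.62 at 60 min, so this component moved with time in WT, and its part in the results was not tested beyond the fits given below. In *stn7* the scores were -2.93 ± 20.4, -15.4 ± 12.4 and 15.1 ± 15.1. As a covariate the component can take up part of the WT time response itself. With it 85 probe sets were called at 30 min in WT, against 6267 without it, and 1272 against 7439 at 60 min. A call lost in that fit therefore cannot tell a weak change from one the covariate took up. A fit without both WT 0 min arrays of high score leaves 1 array in that group, so only its sizes of change are given for single genes. The mean 3' to 5' difference of 6 pairs of control probe sets, which grows as RNA is shorter or less fully copied, was highest at 60 min, at 1.05 ± 0.0282 in WT and 1.11 ± 0.16 in *stn7*, against 0.874 to 0.928 in the other 4 groups.

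**Figure D1:**
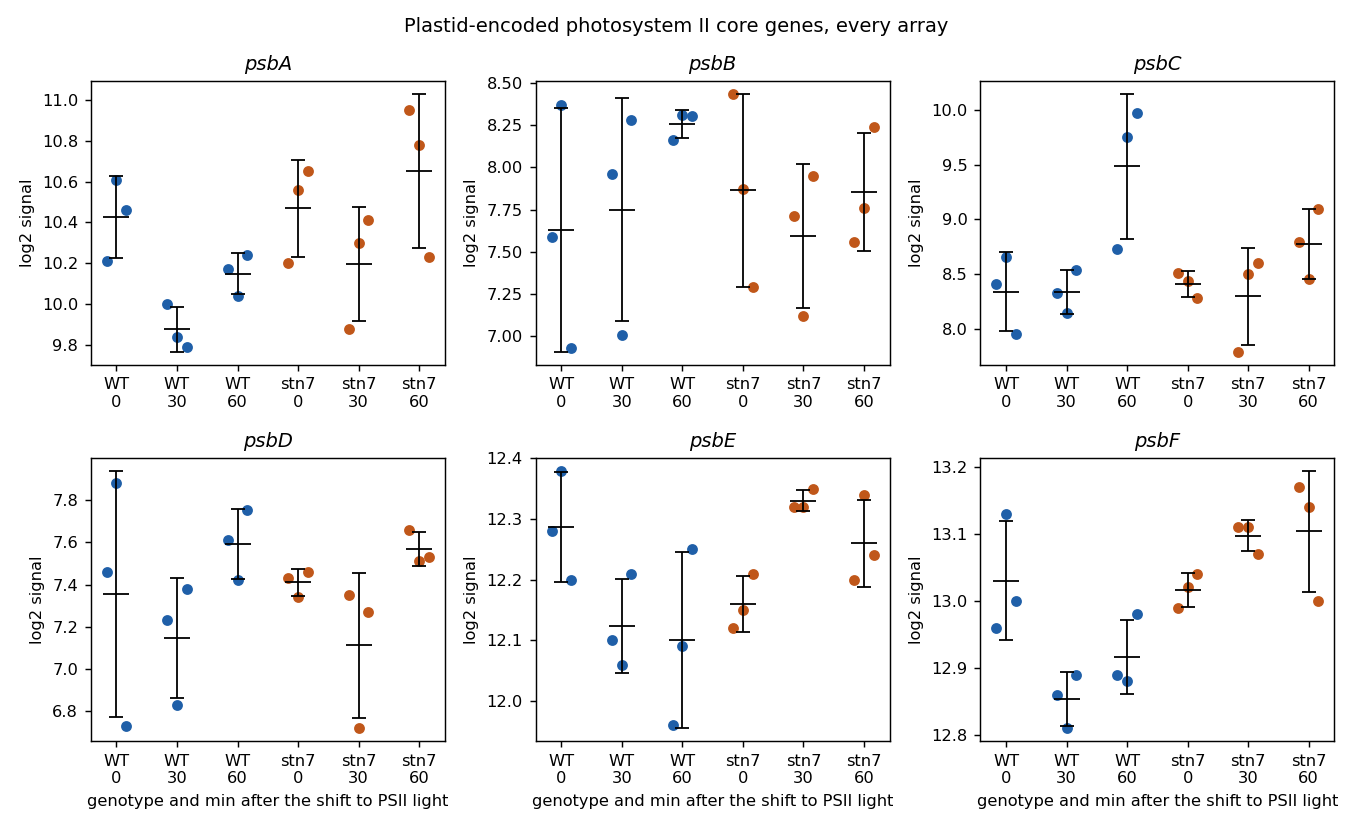
Log2 signal of each of the 6 core genes (vertical axes, 1 panel per gene with its own scale) on the 18 arrays, by genotype and minutes after the shift to PSII light; points are arrays (WT blue, *stn7* orange), long bars are group means and whiskers 1 SD. The WT values of *psbA* are lowest at 30 min, 2 of 3 WT arrays lie high at 60 min for *psbC*, and the values of *psbE* and *psbF* spread over less than 0.5 units.

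*psbA*, the gene of the D1 protein, was lower in WT after 30 min of PSII light. Its log2 signal in WT was 10.21, 10.61 and 10.46 at 0 min, 10.00, 9.84 and 9.79 at 30 min, and 10.17, 10.04 and 10.24 at 60 min (replicates 1 to 3). All 3 arrays at 30 min were below all 3 at 0 min. The share of all probe sets so separated was not counted, and 22% had a smaller limma p than *psbA*. From 0 to 30 min *psbA* fell by 0.55 ± 0.17 (moderated SE from limma, n = 3 per group), a 1.46-fold decrease with a 95% interval of -0.91 to -0.18 and an adjusted p of 0.0247. It was the only core gene called of 6 at 30 min, while 27.6% of all probe sets were called, so the count of core genes is not above the background. At 60 min *psbA* stood 0.28 units under its 0 min value (limma adjusted p = 0.252), and the change from 30 to 60 min was not called either.

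The call of *psbA* at 30 min rests on few arrays. Without WT 0 min replicate 2 or 3, or without WT 30 min replicate 2 or 3, the limma adjusted p was 0.0841, 0.0701, 0.066 or 0.0832. Without both WT 0 min arrays with high component scores, a fit with 1 array left in that group, the change was -0.73. With the component as a covariate it was -0.37 (adjusted p = 0.691).

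In *stn7* the *psbA* signal was 10.20, 10.56 and 10.65 at 0 min, 9.88, 10.30 and 10.41 at 30 min, and 10.95, 10.78 and 10.23 at 60 min. Each time overlapped the next. The change from 0 to 30 min was -0.27 (limma adjusted p = 0.402). That from 30 to 60 min was 0.46 ± 0.17 (adjusted p = 0.083), and it ran from 0.30 (adjusted p = 0.3) without *stn7* 30 min replicate 1 to 0.67 (adjusted p = 0.0117) without *stn7* 60 min replicate 3. The response at 30 min in *stn7* minus that in WT was 0.28 ± 0.25 (adjusted p = 0.59), so the fall in WT was not shown to differ from the change in *stn7*. The group means of *psbA* ran from 10.66 ± 0.38 (SD) in *stn7* at 60 min through 10.47 ± 0.23 in *stn7* at 0 min, 10.43 ± 0.21 in WT at 0 min, 10.20 ± 0.28 in *stn7* at 30 min and 10.15 ± 0.10 in WT at 60 min to 9.88 ± 0.11 in WT at 30 min. Among neighbours in this order only the last pair, WT at 60 and at 30 min, differed by more than the larger SD.

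*psbD*, the gene of the D2 protein, was not called in any of the 12 comparisons. Its WT signal was 7.46, 7.88 and 6.73 at 0 min, 7.23, 6.83 and 7.38 at 30 min, and 7.61, 7.42 and 7.75 at 60 min. In *stn7* the arrays read 7.43, 7.34 and 7.46 at 0 min, 7.35, 6.72 and 7.27 at 30 min, and 7.66, 7.51 and 7.53 at 60 min. In each genotype all 3 arrays at 60 min lay above all 3 at 30 min, though the share of all probe sets so separated was not counted. The difference was 0.45 ± 0.22 both in WT (limma adjusted p = 0.393) and in *stn7* (adjusted p = 0.179). Of all probe sets 13.8% in WT and 29.3% in *stn7* had a smaller p. In the order of its group means *psbD* was highest at 60 min, 7.59 ± 0.17 in WT and 7.57 ± 0.08 in *stn7*, and lowest at 30 min, 7.14 ± 0.29 and 7.11 ± 0.34, with 7.41 ± 0.07 (*stn7*) and 7.36 ± 0.58 (WT) at 0 min between them. Only the step between *stn7* at 60 and at 0 min was larger than the SDs on its sides.

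*psbC*, the gene of CP43, was higher in WT after 60 min of PSII light, with the largest group difference of the 6 genes. Its WT signal was 8.41, 8.66 and 7.95 at 0 min, 8.33, 8.14 and 8.54 at 30 min, and 8.73, 9.75 and 9.97 at 60 min. Replicates 2 and 3 at 60 min were the highest of all 18 arrays, while replicate 1 at 60 min was just above the highest WT array at 0 min. From 0 to 60 min *psbC* rose by 1.14 ± 0.27 (limma, 95% interval 0.57 to 1.71, adjusted p = 0.00327), which is 2.21-fold, and from 30 to 60 min also by 1.14 ± 0.27 (adjusted p = 0.0478). *psbC* was the only core gene called in either comparison. The percentage of all probe sets called was 32.7 from 0 to 60 min and 1.13 from 30 to 60 min.

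The rise of *psbC* from 0 to 60 min kept its call without any 1 array, with adjusted p from 0.000261 to 0.024. It lost the call with the component as a covariate (0.58, limma adjusted p = 0.457). Without both WT 0 min arrays with high component scores, which leaves 1 there, the rise was 0.83. The rise from 30 to 60 min lost its call in 12 of 18 fits without 1 array, with adjusted p up to 0.233. That highest value came without WT 60 min replicate 3 (0.90), and each of the 3 WT arrays at 30 min was also among the 12.

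In *stn7* the *psbC* signal was 8.51, 8.44 and 8.28 at 0 min, 7.79, 8.50 and 8.60 at 30 min, and 8.79, 8.45 and 9.09 at 60 min, so the times overlapped. At 60 min *psbC* in *stn7* minus WT was -0.71 ± 0.27 (95% interval -1.27 to -0.14, limma adjusted p = 0.0974). The 60 min response in *stn7* minus that in WT was -0.77 ± 0.38 (95% interval -1.58 to 0.03, adjusted p = 0.163). Neither was called, but with WT 60 min replicate 1 left out they were -1.08 (adjusted p = 0.0132) and -1.15 (adjusted p = 0.0194). With WT 60 min replicate 3 left out they were -0.46 (adjusted p = 0.362) and -0.53 (adjusted p = 0.375), and with the component as a covariate -0.35 (adjusted p = 0.616) and -0.0037 (adjusted p = 0.999). The group means of *psbC* put WT at 60 min first with 9.48 ± 0.66, then *stn7* at 60 min with 8.78 ± 0.32, and each of these stood above the next by more than the larger SD. The other 4 groups lay between 8.30 ± 0.44 and 8.41 ± 0.12 and did not differ beyond their spread.

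*psbB*, the gene of CP47, varied more within groups than between them and was not called in any comparison. Its WT signal was 7.59, 8.37 and 6.93 at 0 min, 7.96, 7.01 and 8.28 at 30 min, and 8.16, 8.31 and 8.30 at 60 min. In *stn7* the arrays read 8.43, 7.87 and 7.29 at 0 min, 7.71, 7.12 and 7.95 at 30 min, and 7.56, 7.76 and 8.24 at 60 min. The 3 WT arrays at 60 min were close to each other, whereas the other groups had SDs of 0.35 to 0.72. From 0 to 60 min in WT the difference was 0.63 ± 0.35 (limma adjusted p = 0.197), and it hung on the WT 0 min arrays. It was 1.00 (adjusted p = 0.0339) without replicate 2 of that group, 0.28 (adjusted p = 0.655) without replicate 3 and -0.53 (adjusted p = 0.553) with the component as a covariate. Without both high arrays, which leaves 1 WT 0 min array, it was -0.12. The means ran from 8.26 ± 0.08 in WT at 60 min to 7.59 ± 0.43 in *stn7* at 30 min, with no step between neighbours larger than their SDs.

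*psbE* and *psbF*, the cytochrome b559 genes, were bright and tight between replicates. The highest signal on any array was 14.02, so both lay toward the top of the scale, and its part in their small spread was not tested. The *psbE* signal in WT was 12.28, 12.38 and 12.20 at 0 min, 12.10, 12.06 and 12.21 at 30 min, and 11.96, 12.09 and 12.25 at 60 min. In *stn7* *psbE* was 12.12, 12.15 and 12.21 at 0 min, 12.32, 12.32 and 12.35 at 30 min, and 12.20, 12.34 and 12.24 at 60 min. At 30 min all *stn7* arrays lay above all WT arrays for *psbE*. The share of all probe sets so separated was not counted, and 12.1% had a smaller limma p than *psbE*.

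The *psbF* signal in WT was 12.96, 13.13 and 13.00 at 0 min, 12.86, 12.81 and 12.89 at 30 min, and 12.89, 12.88 and 12.98 at 60 min. In *stn7* *psbF* was 12.99, 13.02 and 13.04 at 0 min, 13.11, 13.11 and 13.07 at 30 min, and 13.17, 13.14 and 13.00 at 60 min. For *psbF* the *stn7* arrays were above the WT arrays at both 30 and 60 min, with no overlap, and at 0 min the genotypes overlapped. The share of all probe sets without overlap was not counted, and 5.21% at 30 min and 22.8% at 60 min had a smaller limma p than *psbF*. *stn7* minus WT was 0.24 ± 0.08 for *psbF* at 30 min (limma adjusted p = 0.128) and 0.18 at 60 min (adjusted p = 0.144), and for *psbE* 0.21 ± 0.09 at 30 min (adjusted p = 0.257). None was called.

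The responses of both genes had opposite signs in the genotypes, but the differences were not called. The 30 min response in *stn7* minus that in WT was 0.34 ± 0.13 for *psbE* (limma adjusted p = 0.146) and 0.26 ± 0.11 for *psbF* (adjusted p = 0.213), and at 60 min it was 0.29 ± 0.13 (adjusted p = 0.11) and 0.20 (adjusted p = 0.237). Both response differences share the 0 min arrays. The calls in WT depended on the scaling. In the deposited values the mean of the WT array medians was higher than at 0 min by 0.0972 at 30 min and 0.121 at 60 min. With every array centred on the same median *psbE* fell by 0.26 (adjusted p = 0.0392) and *psbF* by 0.27 (adjusted p = 0.0249) at 30 min. At 60 min these falls were 0.31 (adjusted p = 0.0141) and 0.23 (adjusted p = 0.0422). As deposited, none of these 4 changes was called, though that of *psbE* at 60 min was -0.26 (adjusted p = 0.0467) with WT 60 min replicate 3 left out. Its smallest size without 1 array was -0.12. In the order of group means *psbE* ran from 12.33 ± 0.02 in *stn7* at 30 min to 12.10 ± 0.15 in WT at 60 min, and *psbF* from 13.10 ± 0.09 in *stn7* at 60 min to 12.85 ± 0.04 in WT at 30 min. Steps larger than the SDs on their sides lay between *stn7* at 60 min and at 0 min for *psbE*, and between *stn7* at 0 min, WT at 60 min and WT at 30 min for *psbF*.

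**Figure D2:**
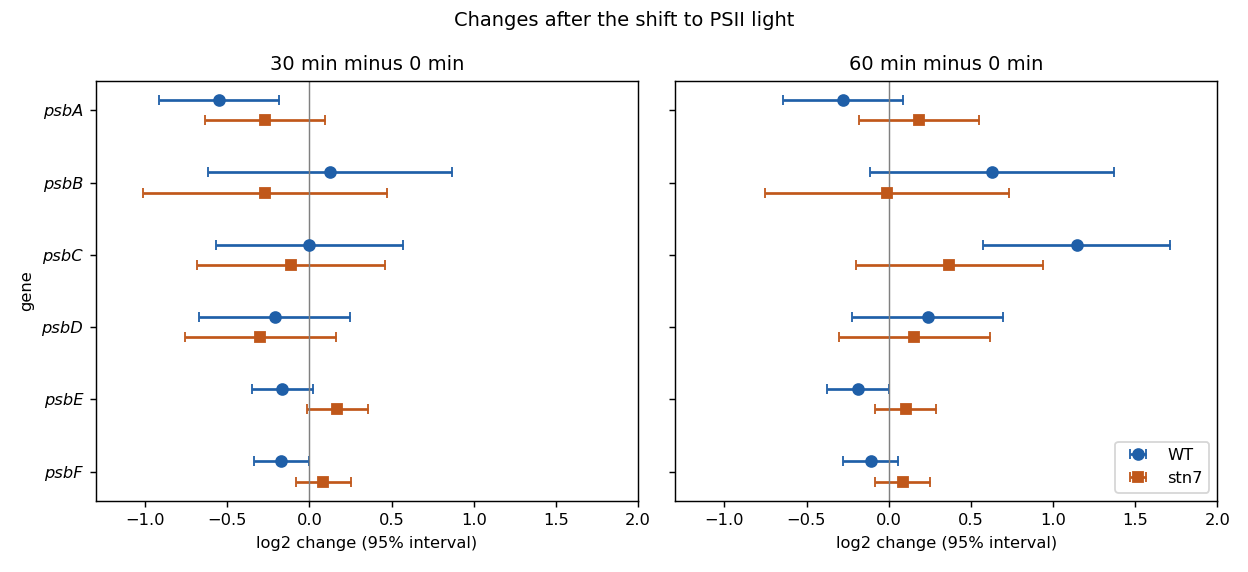
Log2 change of each core gene (rows) from 0 to 30 min (left) and from 0 to 60 min (right) in WT (blue circles) and *stn7* (orange squares), with 95% intervals from limma as whiskers and 0 as the vertical line. After adjustment over all probe sets only *psbA* in WT at 30 min (-0.55) and *psbC* in WT at 60 min (1.14) were called; the intervals of *psbB* are the widest and those of *psbE* and *psbF* the narrowest.

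In *stn7* no core gene was called between times, whereas the percentage of all probe sets called was 7.25 from 0 to 30 min, 16.6 from 0 to 60 min and 16.3 from 30 to 60 min. At an unadjusted p under 0.05 limma gave 0, 0 and 1 core genes in these 3 comparisons. The 1 gene was *psbA*, and 20.4% of all probe sets had a smaller p than it. The median change of the 6 core genes in *stn7* was -0.19 at 30 min and 0.13 at 60 min, beside 0.01 for all probe sets at each time. In WT the medians were -0.17 at 30 min and 0.06 at 60 min, beside -0.01 and -0.05 for all probe sets. The changes at 30 and 60 min share the 0 min arrays of their genotype.

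Between genotypes no core gene was called at 0, 30 or 60 min, while the percentage of all probe sets called was 15.9, 1.78 and 13.1. At an unadjusted p under 0.05 limma gave 0 core genes at 0 min, 2 at 30 min and 3 at 60 min. At 30 min 12.1% of all probe sets had a smaller p than *psbE* and 5.21% than *psbF*. At 60 min this share was 14.6% for *psbA*, 18.5% for *psbC* and 22.8% for *psbF*. For the genotype difference averaged over the 3 times, 10.1% of all probe sets and none of the core genes were called, with 2 at an unadjusted p under 0.05. These were *psbA*, with 0.29 ± 0.10 (adjusted p = 0.0725), and *psbF*, with 0.14 ± 0.05 (adjusted p = 0.0618), both with higher means in *stn7*. Of all probe sets 13.3% had a smaller limma p than *psbA* and 12% than *psbF*. With *stn7* 60 min replicate 3 left out the differences of *psbA* and *psbF* were 0.36 (adjusted p = 0.0182) and 0.16 (adjusted p = 0.0488). *psbA* was also called without replicate 1 of *stn7* at 0 min (0.33, adjusted p = 0.0425) or at 30 min (0.34, adjusted p = 0.0336), and *psbF* without WT 0 min replicate 2 (0.16, adjusted p = 0.0394). These were all the calls in 18 fits without 1 array, 3 for *psbA* and 2 for *psbF*. Over the 18 fits *psbA* went down to 0.24 (limma adjusted p up to 0.143) and *psbF* to 0.13 (adjusted p up to 0.111). At 60 min alone *psbA* in *stn7* minus WT was 0.51 ± 0.17 (95% interval 0.14 to 0.87, adjusted p = 0.0634), and with *stn7* 60 min replicate 3, the lowest of its group, left out 0.72 (adjusted p = 0.00918), but with replicate 1 of that group left out 0.36 (adjusted p = 0.279). Leaving out *stn7* replicate 1 at 0 or at 30 min, which moved no value, gave an adjusted p of 0.0497 or 0.0459. With the 3' to 5' difference as a covariate *psbA* at 60 min was 0.62 (adjusted p = 0.0127).

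The genotype difference in response was called for none of the core genes at 30 or 60 min, with 2 and 1 at an unadjusted p under 0.05 in limma. Over all probe sets 2.04% were called at 30 min and 22.4% at 60 min. A smaller limma p than that of *psbE* or *psbF* was found for 10.8% or 16.7% of them at 30 min. At 60 min it was found for 30.7%, against *psbE*. The estimates at 60 min (*stn7* minus WT) ran from -0.77 for *psbC* and -0.64 for *psbB* to 0.46 ± 0.25 for *psbA* (adjusted p = 0.195), which was 0.67 (adjusted p = 0.0338) with *stn7* 60 min replicate 3 left out, 0.31 (adjusted p = 0.437) with replicate 1 left out and 0.21 (adjusted p = 0.921) with the component as a covariate. Their median was 0.06, beside 0.08 for all probe sets.

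The core genes fell into tight and loose genes by their spread between replicates. The within-group SD was 0.516 for *psbB*, 0.391 for *psbC*, 0.31 for *psbD* and 0.238 for *psbA*, against a median of 0.151 over all probe sets, and 0.0847 for *psbE* and 0.0611 for *psbF*. In percent, 99.4 of all probe sets had a smaller within-group SD than *psbB*, 98.1 than *psbC*, 95.5 than *psbD* and 88.5 than *psbA*, but 4.74 than *psbE* and 0.615 than *psbF*. The precision of a comparison therefore differed several-fold among genes of the same complex.

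**Figure D3:**
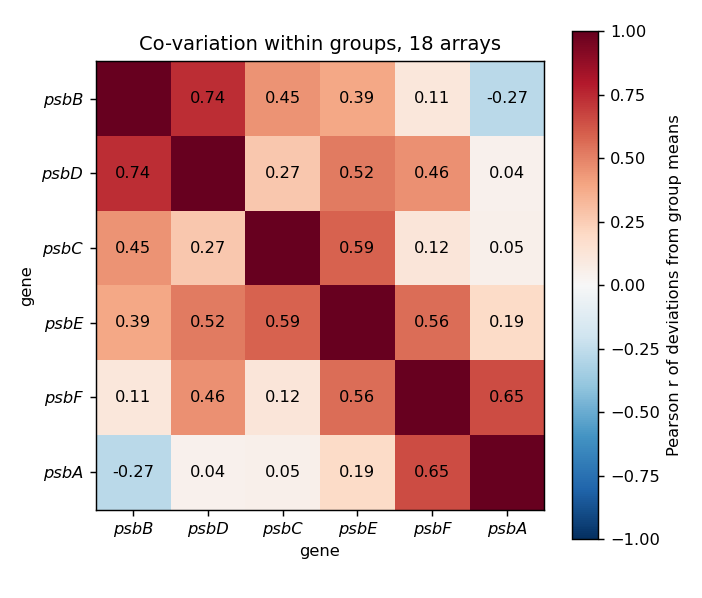
Pearson r between each pair of core genes (rows and columns) for the deviations from the group means over 18 arrays, with the colour scale from -1 (blue) to 1 (red). The highest r are 0.74 for *psbB* with *psbD* and 0.65 for *psbA* with *psbF*; *psbA* has r between -0.27 and 0.19 with the other 4 genes.

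The deviations of the core genes from their group means were compared over the 18 arrays for all 15 pairs, with exact permutation within groups (46656 arrangements, two-sided). The highest correlation was that of *psbB* with *psbD* (Pearson r = 0.74, p = 0.0159, adjusted over the 15 pairs 0.155, Spearman rho = 0.61, p = 0.0303, adjusted 0.146, r = 0.59 without the 2 farthest arrays). *psbA* with *psbF* followed (r = 0.65, exact p = 0.0237, adjusted 0.155, rho = 0.59, p = 0.0353, adjusted 0.146, r = 0.63 without 2 arrays). No pair passed after adjustment. Of the genes that share a transcript, *psbC* with *psbD* had r = 0.27 (exact permutation p = 0.378, adjusted 0.567, rho = 0.28, p = 0.356, r = 0.54 without the 2 farthest arrays). *psbE* with *psbF* had r = 0.56 (exact permutation p = 0.0775, adjusted 0.232, rho = 0.57, p = 0.0691, r = 0.50 without 2 arrays). Differences between these correlations were not tested.

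The same deviations were set against the principal component and the 3' to 5' difference in 12 relations, also with exact permutation within groups over 18 arrays. *psbB* had r = -0.68 with the component (p = 0.0224, rho = -0.60, r = -0.50 without the 2 farthest arrays). *psbA* and *psbF* had r = -0.67 (p = 0.0487, rho = -0.58, r = -0.37 without 2 arrays) and r = -0.68 (p = 0.0455, rho = -0.60, r = -0.46 without 2 arrays) with the 3' to 5' difference. *psbC* had r = -0.44 with the component (exact permutation p = 0.0562, rho = -0.57, p = 0.0248, r = -0.39 without 2 arrays). Each of these 4 had an adjusted p of 0.168 for r and 0.172 for rho, so none of the 12 passed.

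The core genes also differed in how far they moved with the rest of the plastid genome between replicates. As a description over the 18 arrays, which share RNA extracts and scaling, a within-group r above 0.5 was found with 34 of 63 other plastid probe sets for *psbB*, 28 for *psbD*, 27 for *psbC* and 21 for *psbE*, but with 7 for *psbF* and 1 for *psbA*. The median r with these 63 was 0.546 for *psbB* and -0.0694 for *psbA*. Of 13367 nuclear probe sets, between 1.75% (*psbE*) and 7.55% (*psbB*) had an r above 0.5.

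For each core gene the 3 most alike probe sets over all 18 arrays were found by Pearson r, as a description. For *psbC* they were *rpl14* (r = 0.926) and *rpl16* (0.891), genes of plastid ribosomal proteins, and *petA* (0.865), the gene of cytochrome f. For *psbB* they were *petD* (0.907), the gene of subunit IV of the cytochrome b6f complex and part of the *psbB* operon, *rpl20* (0.86), a plastid ribosomal protein gene, and *atpH* (0.858), a gene of the ATP synthase. For *psbD* they were *psaA* (0.795), a photosystem I reaction centre gene, *petD* (0.77) and *ycf4* (0.757), whose product helps to assemble photosystem I. Within groups *petD* kept r = 0.921 with *psbB* and *rpl14* r = 0.935 with *psbC*.

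For *psbA* the 3 most alike were nuclear loci, AT3G07210, AT4G38700 and AT4G30060, with r of 0.826, 0.819 and 0.806. For *psbF* they were *NAMT1* (0.84), *ndhI* (0.838), a plastid gene of the NADH dehydrogenase-like complex, and AT1G61740 (0.834). *NAMT1* read only 3.68 to 4.46, far under the array medians, where the lowest signal on any array was 2.53, so its likeness rests on a low signal. For *psbE* they were AT3G53310 (0.805), AT5G40810 (0.785) and its operon partner *psbF* (0.755). Within groups the r of *NAMT1* with *psbF* was only 0.366, so most of that likeness lay between groups.

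**Figure D4:**
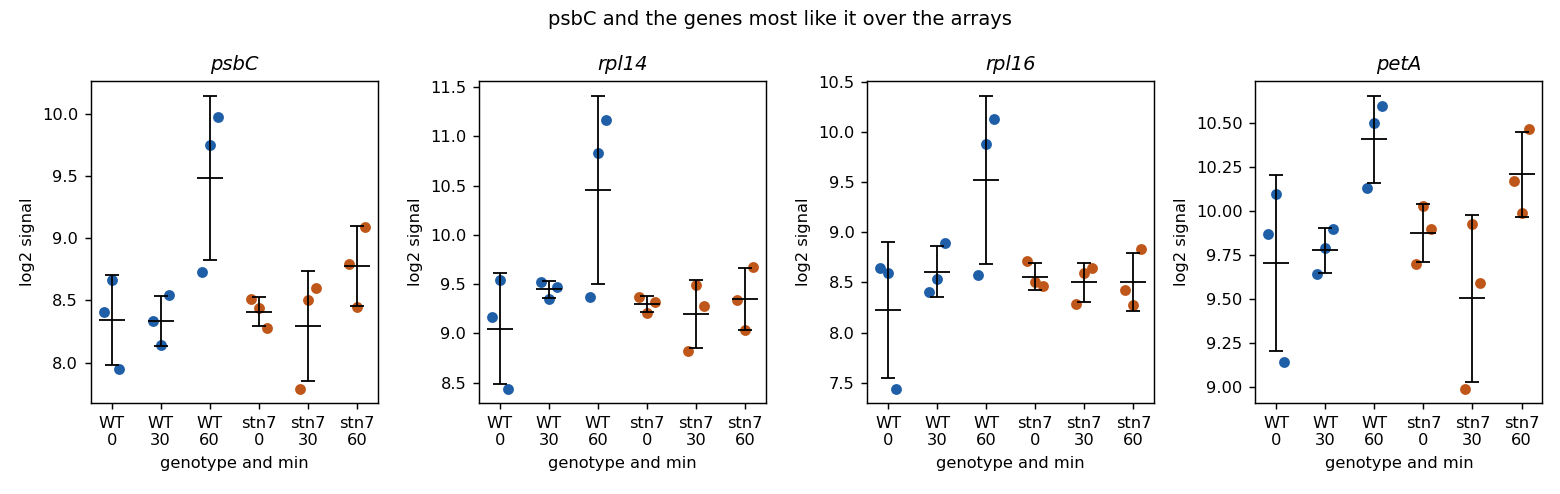
Log2 signal of *psbC* and of the 3 probe sets most like it, *rpl14*, *rpl16* and *petA*, each on its own vertical scale, on the 18 arrays by genotype and minutes of PSII light; points are arrays (WT blue, *stn7* orange), long bars are group means and whiskers 1 SD. In WT at 60 min replicate 1 (left point) is the lowest of its group, and replicates 2 and 3 are the highest of all arrays for each of the 4 genes.

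The arrays that carried the rise of *psbC* were also high for the genes most like it. In WT at 60 min *rpl14* was at 9.37, 10.83 and 11.17, *rpl16* at 8.57, 9.88 and 10.13, and *petA* at 10.13, 10.50 and 10.60 in replicates 1 to 3. Replicate 1 was the lowest of the 3 for *psbC* and for each of these genes. They were chosen for this likeness, so it is no test.

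Among the listed genes of the shared transcripts, calls were few. *psbZ*, a small photosystem II subunit gene downstream of *psbC*, rose by 0.55 ± 0.16 in WT at 60 min (limma adjusted p = 0.013). It lost this call without WT 0 min replicate 3 (0.37), without WT 60 min replicate 3 (0.42) and with the component as a covariate (0.25). Without both high arrays, which leaves 1 WT 0 min array, its change was 0.29. The list for *psbB* held 5 genes, *psbT*, *psbH*, *petB*, *petD* and *psbN*, of which *psbN* lies among the others on the opposite strand. Of these none was called in WT at 60 min, and 1 was called at 30 min: *psbH*, a small subunit gene, fell by 0.51 ± 0.18 (adjusted p = 0.0451). This call was lost in 12 of 28 fits, among them the replicate block (adjusted p = 0.0577) and those without WT replicate 1 or 2 at 0 min or replicate 1 or 2 (-0.32) at 30 min. Another partner, *petB* (cytochrome b6), rose by 0.40 ± 0.13 in *stn7* at 60 min (adjusted p = 0.0484), a call lost in 15 of 28 alternative fits, among them quantile normalization, median centring, the replicate block (adjusted p = 0.0658) and the fits without *stn7* replicate 1 or 2 at 0 min or at 60 min (0.33 to 0.41). The partners of *psbE* and *psbF*, *psbL* and *psbJ*, were called in none of the 12 comparisons.

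The small photosystem II subunits of the plastid genome were all measured (9 of 9). In WT at 30 min 2 rose, *psbI* by 1.14 ± 0.38 (limma adjusted p = 0.0304) and *psbK* by 1.18 ± 0.33 (adjusted p = 0.0134), and *psbH* fell as given above. Their median change was -0.21, beside -0.01 for all probe sets. At 60 min in WT *psbZ* alone was called, and in *stn7* none was called against 0 min at either time. Of all probe sets 27.6% were called at 30 min and 32.7% at 60 min in WT, and 7.25% and 16.6% in *stn7*. The calls of *psbI* and *psbK* were lost without WT 0 min replicate 3, without WT 30 min replicate 2 or 3, and with the component as a covariate (0.39 and 0.22), and that of *psbI* also without WT 0 min replicate 1.

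Of the 63 other plastid probe sets as a whole, 12 were higher and 0 lower in WT at 60 min against 0 min, where 32.7% of all probe sets were called in either direction, with a median change of 0.33 beside -0.05 for all probe sets. They included 1 of 5 photosystem I genes, *psaB* (a reaction centre gene), with 1.05 ± 0.24 (limma adjusted p = 0.00225), 1 of 6 cytochrome b6f genes, *petA*, with 0.71 ± 0.23 (adjusted p = 0.0241), 2 of 6 ATP synthase genes, *atpB* with 0.62 (adjusted p = 0.0421) and *atpE* with 0.70 (adjusted p = 0.00864), and *rbcL*, with 0.45 ± 0.15 (adjusted p = 0.0226). All of these lost their call with the component as a covariate, which can take up part of the time response. Without both WT 0 min arrays with high scores 1 array is left in that group. The changes were then 0.84 for *psaB*, 0.31 for *petA*, 0.17 for *atpB*, 0.40 for *atpE* and 0.04 for *rbcL*. None of the 4 genes of the plastid RNA polymerase was called in any comparison, the smallest p being that of *rpoC1* in *stn7* at 60 min (0.59, adjusted p = 0.0837) and of *rpoB* in WT from 30 to 60 min (0.70, adjusted p = 0.46). In *stn7* at 60 min 1 of the 63 was higher, *petB*, and 1 lower, *atpA* of the ATP synthase, where 16.6% of all probe sets were called. The change of *atpA* was -1.56 (adjusted p = 0.0459), a call lost in 13 of 28 fits. The median change of the 63 was 0.08 there. From 30 to 60 min in *stn7* *petA* rose by 0.70 (adjusted p = 0.044), a call lost in 16 of 28 fits. Over the times *psaJ*, a small photosystem I subunit gene, was lower in *stn7*, with a difference of -0.77 (adjusted p = 0.0212), and kept its call in 26 of 27 fits. At 30 min in WT 3 were higher and 1 lower, where 27.6% of all probe sets were called.

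Of 13 nuclear genes of photosystem II subunits 3 had a named probe set, *PSBW* and *PSBY*, small subunits, and *PSB27*, which binds photosystem II during assembly. In *stn7* at 60 min all 3 fell, by 0.30, 0.50 and 0.54 in that order (limma). In WT at 60 min *PSB27* alone fell, by 0.31 ± 0.10. Over all probe sets 16.6% were called from 0 to 60 min in *stn7* and 32.7% in WT. The falls of *PSBY* and *PSB27* in *stn7* at 60 min kept their call in all 28 alternative fits, and that of *PSBW* in 19 of 28. The losses included the fits without *stn7* replicate 1, 2 or 3 at 0 min and without replicate 1 (-0.24) or 3 at 60 min. The WT fall of *PSB27* kept its call in 21 of 28. It lost the call without WT replicate 1 or 3 at 0 min, without replicate 1 or 2 at 60 min and with the component as a covariate (-0.13). Without both high arrays, which leaves 1 WT 0 min array, the change was -0.16. From 30 to 60 min in *stn7* *PSBY* fell by 0.43 (adjusted p = 0.00423) and *PSB27* by 0.40 (adjusted p = 0.0102). At 60 min *PSBY* was lower in *stn7* than in WT, with a difference of -0.29 (adjusted p = 0.0365), a call kept in 19 of 28 fits and lost without WT 60 min replicate 2 or 3 or any 1 of the *stn7* 60 min arrays.

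Of 17 nuclear genes of photosystem II assembly and repair 4 were measured. In WT *LPA1*, which helps to assemble the D1 protein, rose by 0.63 ± 0.13 at 30 min and by 0.63 at 60 min, and *LPA2* and *PAM68*, assembly factors, fell by 0.24 and 0.62 at 30 min and by 0.30 and 0.67 at 60 min (limma). In *stn7* none of the 4 was called against 0 min. There *LPA2* changed by -0.23 at 30 min and -0.11 at 60 min, *PAM68* by -0.36 and -0.25, and *LPA1* by 0.06 and -0.34. For *LPA2* and *PAM68* the genotype difference in response was not called at either time (limma adjusted p from 0.15 to 0.986). Of all probe sets 27.6% were called at 30 min and 32.7% at 60 min in WT, and 7.25% and 16.6% in *stn7*. From 30 to 60 min *LPA1* fell by 0.40 in *stn7* (adjusted p = 0.0369, kept in 19 of 28 fits). *LPA1* was higher in *stn7* than in WT at 0 min, by 0.76 (adjusted p = 0.00324), but not called at 30 min (0.19) or 60 min (-0.21), and its mean difference over times was 0.25 (adjusted p = 0.0356, kept in 10 of 27 fits). *CTPA*, which trims the D1 precursor, was the other gene measured. The WT changes of *LPA1*, *LPA2* and *PAM68* were not called with the component as a covariate. Without both WT 0 min arrays with high scores, which leaves 1 there, they were 0.40, -0.16 and -0.45 at 30 min. At 60 min they were then 0.40, -0.22 and -0.50. No sigma factor of plastid transcription, thylakoid redox kinase or phosphatase, or plastid RNA processing gene of the lists had a named probe set.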

How the data were processed

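RNA of 18 pooled leaf samples was hybridised to one-colour Affymetrix arrays. The deposited values are log2 signals per probe set, and the submitters' processing notes name GCOS, Affymetrix Expression Console 1.1 and RMA. What RMA settings and probe definitions the authors chose is not stated in the sources used here. Per the labels' protocols, the 3' IVT Express Kit was used. The 64 control probe sets were removed from 22810, with no further scaling or filter.

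Groups came from the sample titles. The means of the 6 groups were estimated over all 22746 probe sets with limma 3.58.1 (R 4.3.3; 17.8 degrees of freedom, 5.8 from the prior), two-sided, with Benjamini-Hochberg adjustment within each of 12 comparisons and a threshold of 0.05. The model was tested on simulated data. Correlations used Python 3.11.15 with numpy 2.4.6. With 3 arrays per group, array number limits precision. The replicates are called biological in the titles.

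The probe table gave 1 gene for 13513 probe sets and several for 503; 13436 matched RefSeq. The 6 members, the lists and the tests were chosen with earlier results of these data known. Genes named were all members in every comparison, list genes that passed (with up to 2 of the smallest p where none did), and the 3 probe sets with 1 gene most correlated with each member. Of 19 lists, 6 had no measured gene. Alternatives were other scalings, filters, variance models, array weights, the replicate block and each array left out, and, added after seeing the data, covariates for the component and the 3' to 5' difference and a fit without both WT 0 min arrays with high scores.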

Additional observations from a re-analysis of the deposited data

Results flagged for a closer look

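The genotype difference in the 60 min response (*stn7* minus WT) passed the limma interaction test for 4 genes near the core genes in function and for none of the core genes themselves. They were 1 of 5 measured photosystem I genes and 1 of 9 small photosystem II genes of the plastid. The others were 1 of 3 nuclear subunit genes and 1 of 4 assembly genes. None of the 6 cytochrome b6f, 6 ATP synthase and 4 RNA polymerase genes passed. Over all probe sets 22.4% passed, so the count of these genes is not above the background. For *psaB*, a photosystem I reaction centre gene, the difference was -0.98 ± 0.335 (adjusted p = 0.0441), with a change of 1.05 in WT and 0.08 in *stn7*. For *psbH*, a small photosystem II subunit gene, it was 0.78 ± 0.26 (adjusted p = 0.037), with -0.34 in WT and 0.45 in *stn7*, neither called. For *PSBY*, a nuclear subunit gene, it was -0.36 ± 0.126 (adjusted p = 0.0458), with -0.14 in WT and -0.50 in *stn7*. For *LPA1*, the assembly factor, it was -0.97 ± 0.18 (adjusted p = 0.0013), with 0.63 in WT and -0.34 in *stn7*. The same value is the genotype difference of *LPA1* at 60 min, -0.21 and not called, minus that at 0 min, 0.76 (adjusted p = 0.00324).

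With the within-group component as a covariate none of these 4 was called, and of all probe sets 0 were, against 5091 without it. The component scores also hold differences between groups, so this covariate can take up part of the responses themselves. Over all 28 alternatives the call was kept in 27 for *LPA1*, 17 for *psbH*, 13 for *psaB* and 9 for *PSBY*.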

How the results depend on the processing

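Each change of the 6 core genes in the 12 comparisons was recomputed under 28 alternatives, 25 planned and 3 chosen after seeing the data. Of 2010 values 1955 kept their side of the threshold, 26 lost and 29 gained a call. No value that was called, as reported or under the alternative, turned its sign, but 96 uncalled values did, among them *psbB* at 60 against 0 min in WT. The fit without both high WT 0 min arrays leaves 1 array in that group, so its counts of core genes are not given. For 30 against 0 min in WT the number of core genes called, 1, became 3 with median centring and 0 with array weights or the component as a covariate, and was 0 to 1 without 1 array. For 60 against 0 min in WT it became 3 with centring and 0 with the component, and was 1 to 2 without 1 array. For 60 against 30 min in WT it became 0 with a trended robust variance, only the groups compared, the replicate block or the 3' to 5' covariate, and was 0 to 1 without 1 array. Where no core gene was called, the 3' to 5' covariate gave 1 for 60 against 30 min in *stn7*, 1 for genotype at 60 min and 2 for genotype over times, array weights gave 2 for genotype at 60 min and 2 over times, the trended robust variance and the component gave 1 each over times, and centring gave 1 (*psbE*) for the 60 min response difference. Without 1 array these 4 counts were 0 to 1, 0 to 1, 0 to 2 and 0 to 1, and the other 5 stayed at 0. The cause was not tested. Arrays with the same replicate number in their titles did not deviate alike throughout. For 15 pairs of groups the correlations of same-numbered deviations ran from -0.411 to 0.331, and in 0 of them were all above 0.1. These values cannot show that the replicates were unpaired, and descriptions of some 0 min arrays number them differently from the titles. The replicate block moved *psbC* from 30 to 60 min to an adjusted p of 0.0563 and changed no other call of a core gene.

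Counts over all probe sets moved by more than 1.5 times. Their lowest and highest values were 85 and 7096 for 30 against 0 min in WT (6267 as reported), 1272 and 9161 for 60 against 0 min (7439), 21 and 680 for 60 against 30 min (258), 684 and 2597 (1649), 2118 and 4142 (3769) and 798 and 5341 (3702) for the same in *stn7*, 1 and 5729 (3609), 92 and 828 (404), 546 and 4549 (2974) and 1172 and 3558 (2292) for genotype at 0, 30 and 60 min and over times, and 3 and 2216 (463) and 0 and 6573 (5091) for the response differences at 30 and 60 min.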
